A study of Mus musculus with 9 samples.

Results

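The genes for the superoxide dismutases, catalase and the glutathione peroxidases were followed across RAW264.7 libraries. Sod1, Sod2, Cat, Gpx1, Gpx3 and Gpx4 were taken by gene name, which gives 6 of the 54532 genes measured. RAW264.7 cells are a macrophage line of the mouse, and lipopolysaccharide (LPS) is a bacterial outer membrane component that provokes an inflammatory response in it. G-CDs are carbon dots prepared from Glycyrrhiza (licorice) with superoxide dismutase-like activity, and the study asked how gene expression differs when they are given together with LPS. RNA-seq was performed on 3 groups of 3 libraries, all from wild-type cells of this line. Control cells were untreated, the LPS group received LPS at 1 μg/ml, and the LPS + G-CDs group received LPS at 1 μg/ml with G-CDs at 400 μg/ml, the exposures lasting 6 h.

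Superoxide dismutases convert superoxide into hydrogen peroxide. Sod1 is the copper and zinc enzyme of the cytosol, and Sod2 is the manganese enzyme of the mitochondrial matrix and a known target of NF-κB in cells exposed to LPS. Hydrogen peroxide is then removed by catalase, which resides mainly in peroxisomes, and by the glutathione peroxidases, which use glutathione and are selenoproteins in the case of Gpx1, Gpx3 and Gpx4.

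Several features of the samples apply to every value. The G-CDs libraries are named for G-CDs in their titles, while their treatment label gives LPS alone. The labels name ascites as the source, and nothing in them says that same-group libraries came from separate cultures, so p-values measure the spread between these libraries, which may be technical. All 8 macrophage markers examined exceeded 1 FPKM in every library, and all 10 markers of other cell types stayed below it, the highest being Pecam1 at 0.861 FPKM. Each library held between 14752400 and 17312255 reads on genes. The LPS libraries were the most alike, with a median SD over genes of 0.0867 on the log2 scale, against 0.244 for the untreated and 0.259 for the LPS + G-CDs libraries.

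Levels are given as FPKM, the fragments per kilobase of gene scaled to library size that the authors deposited. The library size implied by FPKM was 1.108 to 1.14 times the reads on genes in control libraries. It was 0.929 to 0.936 times in LPS and 0.88 to 0.98 times in LPS + G-CDs libraries. The scaling thus differed between control and treated groups, and its cause was not tested. Of the alternatives given below, voom reused these library sizes and TPM rescaled by the summed FPKM. In control cells the mean levels ran in the order Gpx1, Sod1, Gpx4, Cat, Sod2 and Gpx3. The control ranges of Sod1 and Gpx4 overlapped, and those of the other neighbours did not. In LPS-treated cells Sod2 moved to the second place, behind Gpx1, and no neighbours in the order overlapped. In the LPS + G-CDs group the order was Gpx1, Sod1, Sod2, Gpx4, Cat and Gpx3, and all neighbours above Gpx3 overlapped. These ranks depend on the gene length used, because the deposited length of Sod1 is 3970 bases while its principal protein-coding transcript has 641. Divided by the principal transcript, Sod1 ranked first in all 3 groups.

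**Figure D1:**
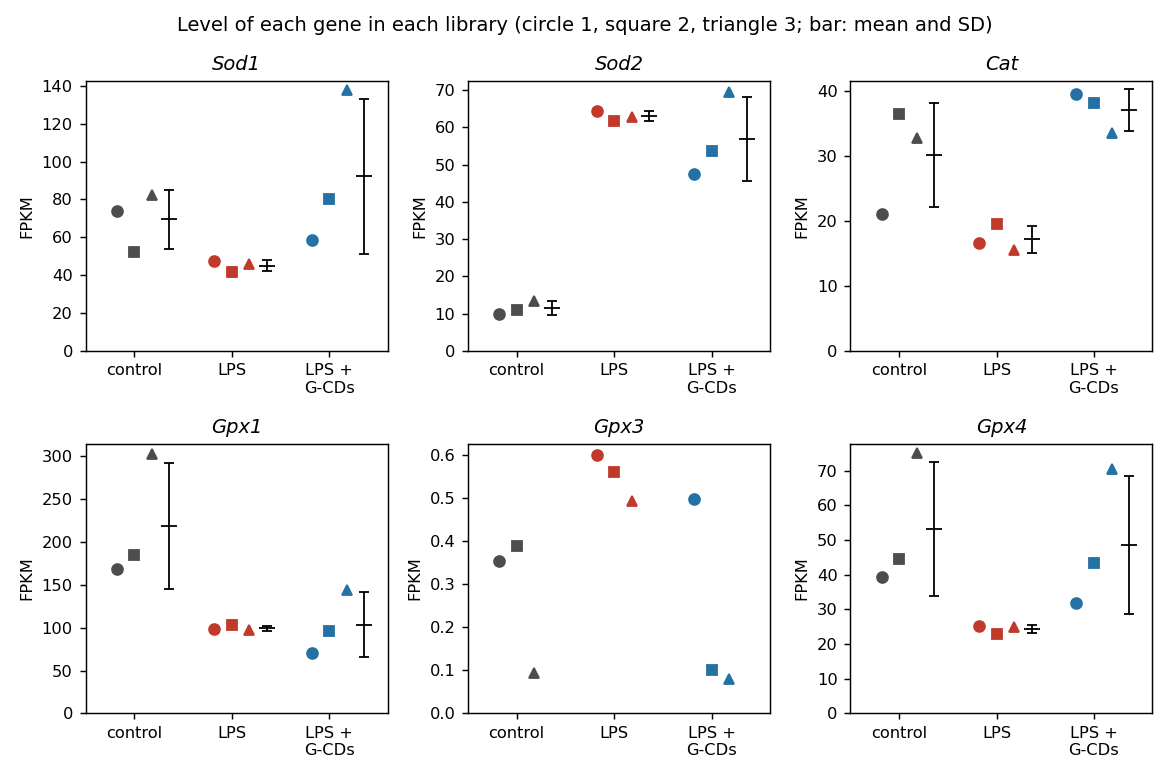
FPKM of each gene (vertical axes, from 0, each on its own scale) in each library of the control, LPS and LPS + G-CDs groups. Symbols mark libraries 1, 2 and 3, and bars give the mean and SD, which are not drawn for the barely detected Gpx3. Sod2 in the LPS libraries sits between 61.7 and 64.5 FPKM, above every control library, while Cat in the LPS libraries lies below every library of the other groups.

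Sod2 was the only tested gene of the set to rise with LPS. It lies at chr17:13006846-13040063 on the plus strand (GRCm38). Its control libraries held 9.93, 10.8 and 13.5 FPKM, the LPS libraries 64.5, 61.7 and 62.8 FPKM, and the LPS + G-CDs libraries 47.6, 53.7 and 69.5 FPKM. Every library given LPS, with or without G-CDs, exceeded every control library, and the groups with and without G-CDs overlapped. Fewer cells of a type and less RNA per cell cannot be told apart in such bulk libraries. The level was 5.20 times that of the control group on the FPKM + 1 scale in LPS-treated cells, a log2 difference of 2.38 with a 95% interval of 2.01 to 2.75 (limma, adjusted p = 8.8e-06). Against LPS alone, G-CDs gave a log2 difference of -0.16 with an interval of -0.53 to 0.21 (adjusted p = 0.56), so a change of either sign within that interval was not detectable. The value was -0.31 without LPS + G-CDs library 3 and -0.04 without LPS + G-CDs library 1.

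Sod1 was lowest in the LPS libraries and higher in each library that also received G-CDs. The gene occupies chr16:90220754-90226329 on the plus strand. Its control libraries held 73.8, 52.1 and 82.3 FPKM, the LPS libraries 47.5, 41.8 and 45.9 FPKM, and the LPS + G-CDs libraries 58.3, 80.3 and 137.9 FPKM. The LPS libraries lay below all others without overlap, but their fall from control, -0.59 on the log2 scale with an interval of -1.26 to 0.08, missed the threshold (limma, adjusted p = 0.16). With G-CDs the log2 difference from LPS was 0.93, with an interval of 0.26 to 1.60 (adjusted p = 0.26), and the 3 libraries of that group ranged widely. Reads of Sod1 carry some uncertainty, since it overlaps Scaf4 on the opposite strand over 650 bases and the strandedness of counting is not given in the sources used here. Scaf4 had between 18.1 and 38.7 FPKM. The pseudogene Gm8566 shares 23.1% of the 50-base words of the Sod1 transcript, although its reads amounted to at most 2.05% of those of the pair in any library.

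The sequences before the principal transcripts of the tested genes are shown, and no link between them and the response to LPS was tested. Each is the stretch that ends just before the principal transcript, 5′ to 3′ on the strand of the gene. They come from RefSeq promoter windows of the GRCm38.p6 build, which matched all 6 genes. Those of Sod2, Gpx1 and Gpx4 lie inside the spans given for these genes, which begin before the principal transcript. Capitals mark motif matches on either strand, namely the GC box GGGCGG, the TATA box TATAAA, the antioxidant response element core TGANNNNGC and the NF-κB consensus.
Sod2, chr17:13007689-13007816, plus strand: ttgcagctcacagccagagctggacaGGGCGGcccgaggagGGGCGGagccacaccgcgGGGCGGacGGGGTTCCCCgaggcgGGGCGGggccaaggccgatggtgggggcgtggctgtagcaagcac
Sod1, chr16:90220612-90220753, plus strand: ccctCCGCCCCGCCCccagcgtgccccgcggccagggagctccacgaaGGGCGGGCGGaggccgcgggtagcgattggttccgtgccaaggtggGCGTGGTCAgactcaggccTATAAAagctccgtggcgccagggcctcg
Cat, chr2:103485161-103485303, minus strand: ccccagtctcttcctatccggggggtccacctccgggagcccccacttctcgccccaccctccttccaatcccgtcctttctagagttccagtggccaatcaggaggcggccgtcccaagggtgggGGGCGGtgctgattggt
Gpx1, chr9:108338930-108339053, plus strand: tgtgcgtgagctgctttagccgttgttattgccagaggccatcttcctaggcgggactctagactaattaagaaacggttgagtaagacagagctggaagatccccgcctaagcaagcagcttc
Gpx4, chr10:80053415-80053487, plus strand: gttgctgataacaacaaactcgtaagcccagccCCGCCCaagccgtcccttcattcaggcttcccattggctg

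The windows searched ran from 250 bases before the RefSeq start to 50 bases from it. The NF-κB consensus matched in Sod2 and in no other gene of the set, at -83 to -74 counted from the start site as position 0, and both strands matched there. Such a match occurred in 4.51% of all 32851 promoter windows. The antioxidant response element core matched in Sod1 alone, at -56 to -48 on the minus strand, and 41.3% of all windows hold one. The TATA box matched in Sod1 alone, at -37 to -32, and was present in 13.6% of all windows. Sod1 and Sod2 each held 4 GC boxes, those of Sod1 in pairs that overlap each other. Of the 9 windows of the set, 4 belong to Gpx4, and the stretch shown for it is from window 2. Its window 1, at the start of the gene, held no motif match. At least 1 window of every gene held a GC box. Counted by single windows, 35.7% of all windows held one. The GC box of Gpx1 lay behind its start, from 8 to 13. A match is a stretch of letters and was not examined for binding in these cells.

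Cat, the gene for catalase, fell with LPS and was higher in all 3 LPS + G-CDs libraries than in any LPS library. It lies at chr2:103453849-103485160 on the minus strand. Its control libraries held 21.1, 36.5 and 32.8 FPKM, the LPS libraries 16.5, 19.5 and 15.5 FPKM, and the LPS + G-CDs libraries 39.6, 38.2 and 33.5 FPKM. The LPS group overlapped with neither of the others, whereas the control and LPS + G-CDs groups overlapped. The fall with LPS was -0.75 on the log2 scale (interval -1.20 to -0.30, limma, adjusted p = 0.020). With G-CDs the level was 2.10 times that of LPS alone on the FPKM + 1 scale, a log2 difference of 1.07 (interval 0.62 to 1.52, limma, adjusted p = 0.071). Its unadjusted p in the same limma fit was 0.00046. The study selected genes of oxidative stress and inflammation from these same libraries, and its heatmap figure labels Cat among them. The direction of Cat here is therefore not independent evidence.

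Gpx1, the abundant cytosolic and mitochondrial glutathione peroxidase, was lower than control in LPS-treated cells, with or without G-CDs. It lies at chr9:108338903-108340343 on the plus strand. Its control libraries held 168.1, 185.0 and 302.6 FPKM, the LPS libraries 98.4, 102.7 and 97.0 FPKM, and the LPS + G-CDs libraries 70.6, 96.1 and 144.3 FPKM. All libraries given LPS, with or without G-CDs, were below all control libraries. The log2 difference from control was -1.08 in the LPS group (interval -1.73 to -0.43, limma, adjusted p = 0.020) and -1.08 in the LPS + G-CDs group (adjusted p = 0.024). Between the LPS + G-CDs and LPS groups the interval of the difference was -0.65 to 0.65.

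Gpx4, the peroxidase that reduces phospholipid hydroperoxides in membranes, fell with LPS as Gpx1 did but was higher again in the LPS + G-CDs libraries. It lies at chr10:80047166-80056439 on the plus strand. Its control libraries held 39.5, 44.6 and 75.2 FPKM, the LPS libraries 25.2, 23.0 and 25.1 FPKM, and the LPS + G-CDs libraries 31.8, 43.5 and 70.5 FPKM. The LPS libraries were below all others, and the control and LPS + G-CDs groups overlapped. The fall with LPS was -1.03 on the log2 scale (interval -1.73 to -0.34, limma, adjusted p = 0.031), and the difference of LPS + G-CDs from LPS was 0.89 (interval 0.20 to 1.58, adjusted p = 0.28). Gpx4 reads are uncertain, because the pseudogene Gpx4-ps2 shares 68.9% of the 50-base words of its transcript and took between 12.97% and 18.57% of the reads of the pair. Adding the reads of both pseudogenes to their genes, an alternative chosen after seeing the data, left the Gpx4 differences at -1.02 (adjusted p = 0.038) and 0.86 (adjusted p = 0.30).

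Gpx3, the secreted plasma glutathione peroxidase, was barely detected. It lies at chr11:54902453-54910377 on the plus strand. Its control libraries held 12, 12 and 3 reads, the LPS libraries 15, 14 and 13 reads, and the LPS + G-CDs libraries 13, 3 and 2 reads. The LPS libraries lay above the control libraries without overlap, and overlapped with the LPS + G-CDs libraries. It was the single gene of the set below the filter of 1 FPKM in 3 libraries and was not tested. The remaining genes of both families, Sod3, Gpx2, Gpx5, Gpx6, Gpx7 and Gpx8, had 0 reads in all 9 libraries, which allows up to 3 reads in each.

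Of the 5 tested genes, 1 rose and 3 fell in LPS-treated cells relative to control cells, at an adjusted p under 0.05. Among all 11585 genes tested, 15.8% rose and 15.6% fell. Leaving out 1 library ended the call of Gpx1, Gpx4 or Cat in several cases, while that of Sod2 held each time. Without LPS library 1, without LPS library 3 or without control library 3, Sod2 was the single gene called, with Cat at adjusted p = 0.069, 0.076 and 0.062. Without LPS library 2, Sod2 and Cat were called, without control library 2 Cat was lost (adjusted p = 0.062), and without LPS + G-CDs library 2 Gpx4 was lost (adjusted p = 0.051). Sod1 passed in its turn without LPS + G-CDs library 3 (adjusted p = 0.045).

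Relative to LPS alone, none of the 5 genes passed the adjusted threshold with G-CDs, either with limma or with limma's voom on the recovered reads. Few genes did so at all, with 0.492% of those tested called in either direction. At an unadjusted p under 0.05, 3 of the 5 were higher with G-CDs (Cat, Sod1 and Gpx4), against 7.19% of all tested genes. The same 3 were higher without overlap between the groups, which held for 12.9% of all tested genes. Cat alone passed the threshold of the study (p under 0.01 and more than 1.5-fold), which 1.24% of all tested genes passed in this direction. Cat passed the adjusted threshold without control library 1 (adjusted p = 0.019) and in a fit of the 6 libraries of the comparison alone (adjusted p = 0.049), and its adjusted p ranged from 0.019 to 0.33 over all alternatives.

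**Figure D2:**
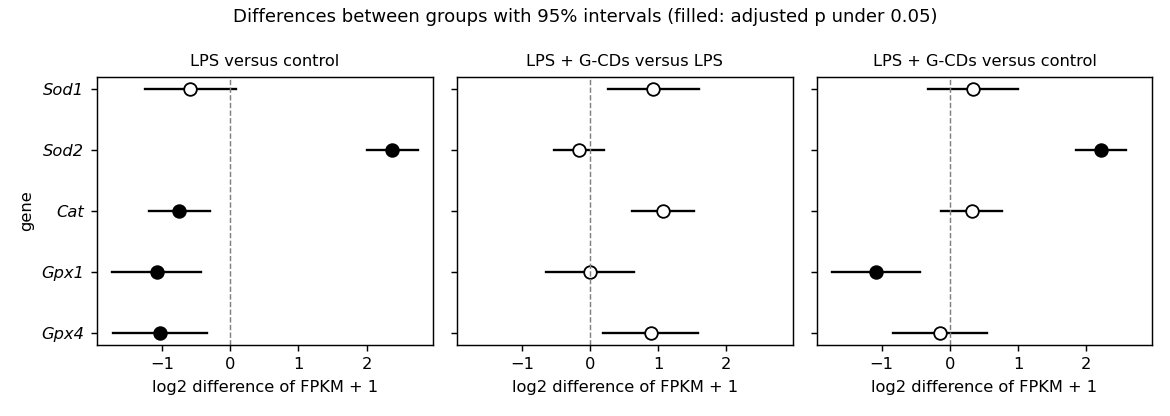
Log2 difference of FPKM + 1 (horizontal axes) with its 95% interval for the 5 tested genes in the 3 comparisons. Filled points have an adjusted p under 0.05, which holds for Sod2, Cat, Gpx1 and Gpx4 in LPS versus control, for no gene in LPS + G-CDs versus LPS, and for Sod2 and Gpx1 in LPS + G-CDs versus control.

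In a comparison of LPS + G-CDs with control cells, 2 of the 5 genes differed. Sod2 was higher by 2.22 on the log2 scale (adjusted p = 1.6e-05) and Gpx1 lower, as given above, while 12.8% of all tested genes were higher and 12.4% lower. The log2 difference was 0.32 for Cat (limma, adjusted p = 0.28), 0.34 for Sod1 (adjusted p = 0.45) and -0.14 for Gpx4 (adjusted p = 0.77). These uncalled differences moved with single libraries. That of Sod1 was 0.01 without LPS + G-CDs library 3, 0.15 without control library 2 and 0.62 without LPS + G-CDs library 1, and that of Cat was 0.09 without control library 1. With all libraries the intervals ran from -0.13 to 0.77 for Cat, from -0.33 to 1.01 for Sod1 and from -0.84 to 0.55 for Gpx4. The Gpx1 call was lost without control library 3 (adjusted p = 0.056), LPS + G-CDs library 1 (adjusted p = 0.053) or LPS + G-CDs library 2 (adjusted p = 0.078). The comparison shares its libraries with the others, so the 3 sets of values are not independent.

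The balance within each family was then examined as the share of 1 gene in the summed FPKM of its family, a ratio taken inside each library. Sod2 made up 11.9%, 17.2% and 14.1% of the summed level of Sod1 and Sod2 in control libraries. It made up 57.6%, 59.6% and 57.8% in LPS libraries and 44.9%, 40.1% and 33.5% in LPS + G-CDs libraries. The 3 groups did not overlap, and each exact permutation test gave p = 0.1, the smallest that 3 against 3 libraries allow. The mean shares were 14.4% ± 2.68, 58.3% ± 1.13 and 39.5% ± 5.74 (SD, n = 3). By the principal transcript lengths, a choice made after seeing the data, the shares were lower but in the same order, at 3.58% to 5.42%, 27.3% to 29.0% and 12.2% to 18.4%. From library 1 to library 3 of the LPS + G-CDs group the share fell. Genes near Sod1 in length deviated there from their group means by medians of -0.36, -0.05 and 0.42 (log2). Shares were not recomputed with such a length trend removed.

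Among the glutathione peroxidases, the share of Gpx4 overlapped between control and LPS libraries and was higher in all 3 libraries with G-CDs. Gpx4 made up 19.0%, 19.4% and 19.9% of the summed level of Gpx1, Gpx3 and Gpx4 in control libraries and 20.3%, 18.2% and 20.5% in LPS libraries. These ranges overlapped, and the means of 19.4% ± 0.454 and 19.7% ± 1.24 (SD, n = 3) gave p = 0.8 by the exact permutation test. In LPS + G-CDs libraries the share was 30.9%, 31.1% and 32.8%, above every other library, with a mean of 31.6% ± 1.04 (SD, n = 3, exact permutation p = 0.1, the smallest possible). The FPKM of Gpx4 was 0.235 to 0.248 times that of Gpx1 in control libraries, 0.224 to 0.258 times in LPS libraries and 0.450 to 0.489 times in LPS + G-CDs libraries, a ratio chosen after its values were seen. Both Gpx4 and Sod1 have short principal transcripts, of 959 and 641 bases. The ratio of Gpx4 to Sod1, which was not planned, was near-constant in the libraries given LPS, at 0.531 to 0.551 without and 0.511 to 0.545 with G-CDs. In control libraries that ratio was 0.535, 0.855 and 0.913, so the narrow range did not extend to untreated cells.

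**Figure D3:**
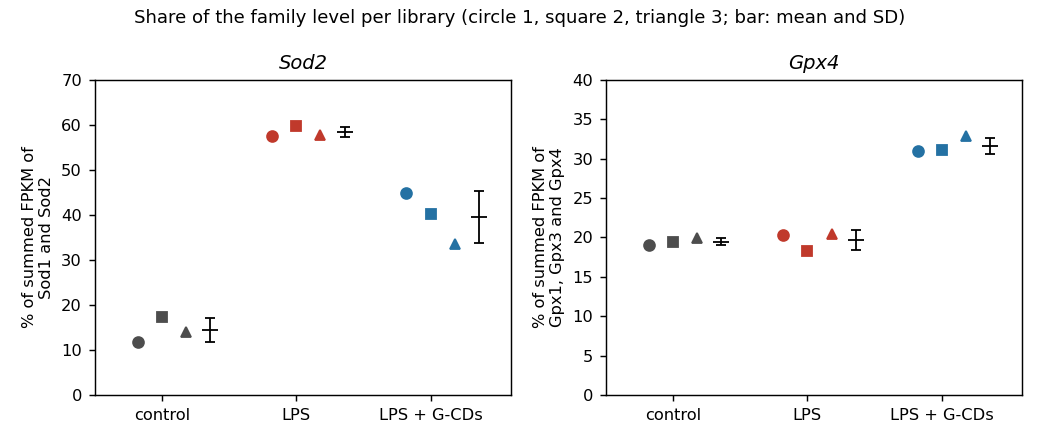
Share of Sod2 in the summed FPKM of Sod1 and Sod2 (left, %) and of Gpx4 in that of Gpx1, Gpx3 and Gpx4 (right, %), per library and group. Symbols mark libraries 1, 2 and 3, and bars give the mean and SD. The Sod2 share separates all 3 groups, and the Gpx4 share is between 18.2% and 20.5% in control and LPS libraries and between 30.9% and 32.8% with G-CDs.

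The wide spread of Sod1, Gpx1 and Gpx4 within the LPS + G-CDs group followed that of other genes with short transcripts. On the log2 scale, Sod1 deviated from its group mean by -0.56, -0.11 and 0.67 in libraries 1, 2 and 3, and the 512 tested genes within 20% of its principal transcript length deviated by medians of -0.36, -0.05 and 0.42. Gpx4 deviated by -0.52, -0.08 and 0.60, and the 854 genes of similar length by -0.38, -0.04 and 0.42. For Gpx1 the deviations were -0.49, -0.05 and 0.53, against -0.36, -0.03 and 0.40 for 960 genes. Sod2, with a principal transcript of 5861 bases, went the opposite way from the 1395 genes of similar length, at -0.235, -0.06 and 0.30 against 0.275, -0.00338 and -0.27. Cat stayed close to its group mean in all 3 of these libraries, at 0.09, 0.05 and -0.14. Control libraries also differed by length. In control library 3, Sod1, Gpx1 and Gpx4 deviated by 0.269, 0.517 and 0.551, and the medians of genes of similar length were 0.245, 0.231 and 0.228. In control libraries 1 and 2 those medians lay between -0.127 and -0.0735.

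**Figure D4:**
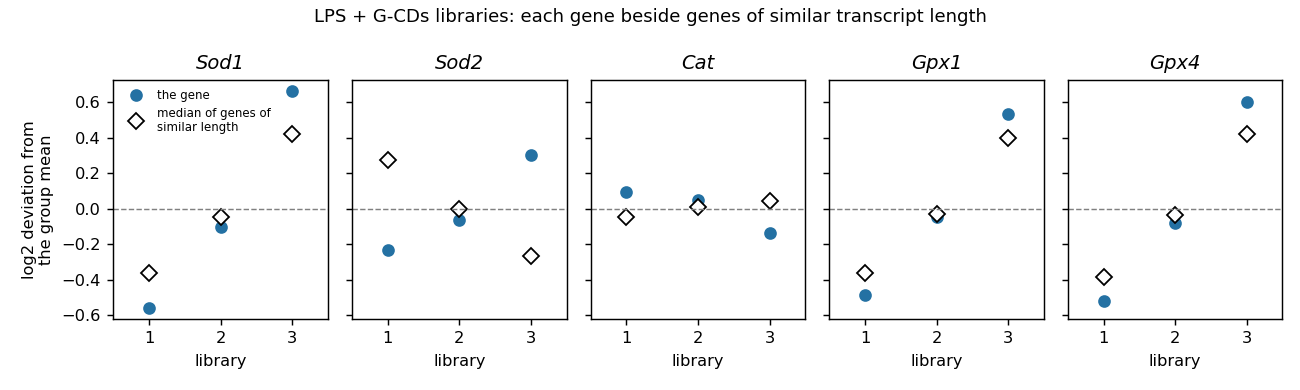
Deviation from the group mean (vertical axis, log2) in the LPS + G-CDs libraries 1, 2 and 3, for each gene (filled circles) and for the median of tested genes within 20% of its principal transcript length (open diamonds). Sod1, Gpx1 and Gpx4 run with genes of similar length from low in library 1 to high in library 3, Cat stays near 0, and Sod2 also runs from low to high, but against the genes of its own length.

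With the trend against the principal transcript length removed from each library, an alternative chosen after seeing the data, the differences between LPS + G-CDs and LPS became 0.73 for Sod1 (adjusted p = 0.13), 0.66 for Gpx4 (adjusted p = 0.14) and 1.03 for Cat (adjusted p = 0.052). Sod2 turned from -0.16 to 0.10 (adjusted p = 0.86). In the comparison of LPS with control, Sod1 then passed the threshold at -0.65 (adjusted p = 0.028), as did the other 4 genes. With the trend against the deposited gene length removed instead, Sod1 did not pass in that comparison (-0.62, adjusted p = 0.11), and the differences between LPS + G-CDs and LPS were 0.90 for Sod1 (adjusted p = 0.20), 0.68 for Gpx4 (adjusted p = 0.19) and 0.92 for Cat (adjusted p = 0.11). Without LPS + G-CDs library 3, the differences from LPS were 0.60 for Sod1 and 0.59 for Gpx4, over 1.5 times less than with it for both.

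Genes that supply these enzymes were examined from lists of their known roles, and a value in parentheses is the log2 difference of a gene that passed the adjusted threshold (limma). Of 8 tested genes for the supply of copper and manganese, 3 rose with LPS and 0 fell, against 15.8% and 15.6% of all tested genes, with a median log2 difference of 0.71 against 0.02 for all tested genes. They were Slc31a2, a copper transporter of endosomes (2.08), the divalent metal transporter Slc11a2 (1.79) and Slc39a14, which carries manganese and zinc (1.08). With G-CDs against LPS, 0 of these 8 passed, 2 were lower at an unadjusted p under 0.05 (8.04% of all tested genes), and their median was -0.17. Of 11 genes listed for selenocysteine insertion, selenium supply or selenium binding, 1 rose with LPS (Secisbp2l, 1.08) and 3 fell, against 15.8% and 15.6% of all tested genes. Those that fell were the selenium-binding Selenbp1 (-2.58), the selenocysteine lyase Scly (-0.59) and the kinase Pstk (-0.57). With G-CDs against LPS, 0 of the 11 passed, and at an unadjusted p under 0.05, 2 were higher and 1 lower, against 7.19% and 8.04% of all tested genes. Among 14 tested genes of other selenoproteins, the thioredoxin reductase Txnrd1 rose with LPS (0.68), and Selenoh (-1.19) and Msrb1 (-1.01) fell, which is at or below the share over all tested genes in each direction. With G-CDs against LPS, 0 of the 14 passed, and 1 was higher at an unadjusted p under 0.05, against 7.19% of all tested genes.

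Of 25 tested peroxisomal genes around catalase, 2 rose and 11 fell with LPS, against 15.8% and 15.6% of all tested genes, with a median of -0.37, including the thiolases Acaa1b (-1.55) and Acaa1a (-1.42). The peroxisomal oxidase Hao1 (2.23) was among those that rose. With G-CDs against LPS 0 of the 25 passed, 4 were higher at an unadjusted p under 0.05 (7.19% of all tested genes), and the median was 0.21 against 0.02 for all tested genes. Of 15 mitochondrial matrix redox genes around Sod2, 2 rose with LPS, which were the peroxiredoxin Prdx5 (1.97) and the sulfide oxidase Sqor (0.81), and 3 fell, which were Msrb2 (-1.02), Ethe1 (-0.85) and Idh2 (-0.75). Both counts are near the shares over all tested genes. With G-CDs against LPS, 0 of the 15 passed, and 3 were higher at an unadjusted p under 0.05, against the same 7.19%. Among 9 tested producers of superoxide and peroxide, 2 rose with LPS and 0 fell, against 15.8% and 15.6% of all tested genes. They were Cybb, the catalytic subunit of the phagocyte NADPH oxidase (2.11), and Ero1l (0.69). With G-CDs against LPS 0 passed, while 1 was higher and 1 lower at an unadjusted p under 0.05, against 7.19% and 8.04% of all tested genes.

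Of 16 peroxiredoxin and thioredoxin genes, 3 rose with LPS and 0 fell, against 15.8% and 15.6% of all tested genes, and 2 rose with G-CDs against LPS, where 0.492% of all tested genes were called in either direction. These 2 were Srxn1, which repairs oxidised peroxiredoxins (2.22, adjusted p = 9.6e-05) and the peroxiredoxin Prdx1 (1.81, adjusted p = 0.037). Of 9 tested genes of glutathione synthesis and recycling, 3 rose and 1 fell with LPS, against 15.8% and 15.6% of all tested genes. With G-CDs against LPS, 1 rose, beside the 0.492% of all tested genes called in either direction. It was Gclm, a subunit of the ligase of glutathione synthesis (2.03, adjusted p = 9.6e-05). Of 29 tested Nrf2 targets, 4 rose and 10 fell with LPS, against the same 15.8% and 15.6%. With G-CDs against LPS, 10 rose, beside the same 0.492%, with a median of 0.99 against 0.02 for all tested genes. Hmox1 (3.23), Srxn1 (2.22) and Akr1b8 (2.11) led them. The lists share genes with each other and were chosen with earlier results of these data known. The study also selected oxidative stress genes from these libraries, so the direction of the Nrf2 targets is not independent evidence. Cat, the nearest of the 5 to the threshold, differed by 1.07 on the same scale.

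The tested genes whose profile over the 9 libraries was closest, by the root mean square difference of centred log2 values, were named for each gene. For Sod1 these were Ccdc107 (0.095), Uqcr10 (0.11) and Rpl38-ps2 (0.11). The nearest to Gpx4 were Tmem205 (0.084), Ppdpf (0.12) and Hscb (0.13), whose principal transcripts, at 785, 1160 and 804 bases, are short like the 959 bases of Gpx4. Sod2 was closest to the cytoplasmic actin Actg1 (0.10), the adenosine receptor Adora2b (0.11) and Tmem132a (0.12). Gpx1 was followed by H2afx (0.17), Samd1 (0.17) and the lysozyme Lyz2 (0.17). Cat had no neighbour closer than Defb25 (0.19), which itself had a mean level of 0.243 FPKM in the LPS group, before Cd151 (0.23) and Depdc7 (0.24). The libraries share their group, depth and length trend, and no more than likeness of profile is given.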

How the data were processed

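Total RNA from RAW264.7 cells was sequenced by the authors, who deposited 1 table with an FPKM value for each gene and library and the coordinates and length of each gene. The aligner, the counting method and its strandedness are not given in the sources used here. The submitters' processing notes name the builds GRCm38 and mm10, and the coordinates of all 6 genes equaled those of GENCODE mouse release 21.

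Columns were assigned to samples by name. FPKM multiplied by gene length came out as whole multiples of 1 read, within 0.05 reads, for 100.0% of values in each library, and the recovered reads served for depth and for an alternative with limma's voom. The genes and lists were chosen with earlier results of these data known. Genes with at least 1 FPKM in at least 3 of 9 libraries (11585) were fitted as log2(FPKM + 1) with limma 3.58.1 in R 4.3.3, in 1 model for the 3 groups with a mean-variance trend. Tests were two-sided with Benjamini-Hochberg adjustment over all these genes, and a gene was called at an adjusted p under 0.05. A difference on this scale understates the change of low genes. Family shares were compared with exact permutation tests. The fit was tested on simulated data. Tables were made with Python 3.11.15, pandas 2.3.3 and numpy 2.4.6.

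All 6 genes were named in every library. From each list up to 3 called genes per direction and comparison, and the 3 genes closest in profile to each of the 5, could be named. Some genes that this rule covers are not reported here. A principal transcript is the main protein-coding transcript of a gene in GENCODE. Shared sequence is the share of the 50-base words of that transcript found in transcripts of other genes. Protein sequences were not used here.

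The groups share replicate numbers whose meaning no label gives. Each library's deviation from the mean of its group was correlated with that of the library of the same number in another group. For control with LPS this gave 0.103, 0.137 and 0.113, over the limit of 0.1 that was taken to mark pairs. For LPS with LPS + G-CDs it gave 0.095, 0.0801 and 0.143, and for control with LPS + G-CDs 0.28, 0.0575 and 0.653. Libraries of unlike numbers gave -0.127 to -0.0139, -0.164 to 0.068 and -0.671 to 0.504 in the same order. For control with LPS + G-CDs, values over the limit were thus not confined to like numbers. The alternatives were a replicate block, a pseudocount of 0.1, filters of none and of 5 FPKM, scaling by TPM, quantiles or median of ratios, voom, a fit without the mean-variance trend, separate fits of 6 libraries, removal of the gene-length trend and leaving out each library. Removal of the principal-transcript-length trend, addition of pseudogene reads and shares by principal transcript length were added after seeing the data.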

Additional observations from a re-analysis of the deposited data

How the results depend on the processing

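Sod2 kept its direction and its call against control, with and without G-CDs, under all 22 alternatives. With each library left out in turn, the number of the 5 genes called ranged from 1 to 5 in LPS versus control (4 with all libraries), from 0 to 1 in LPS + G-CDs versus LPS (0 with all) and from 1 to 2 in LPS + G-CDs versus control (2 with all). In fits of 6 libraries alone, 1 gene was called in LPS + G-CDs versus LPS and 1 in LPS + G-CDs versus control, and without a filter 1 in the latter. The replicate block changed no call of these genes, with 4, 0 and 2 called, and gave Sod1 an adjusted p of 0.10 in LPS versus control. Of 22 alternatives, the fall with LPS missed the threshold for Cat in 4, Gpx1 in 4 and Gpx4 in 6 while staying negative (over all alternatives -1.03 to -0.59 for Cat, -1.35 to -0.82 for Gpx1 and -1.32 to -0.76 for Gpx4), each time on leaving out a library except for Gpx4 without a filter (adjusted p = 0.074), and Sod1 passed in 5. Among differences that were not called, Sod2 in LPS + G-CDs versus LPS turned to 0.099 and 0.097 with the gene-length and principal-transcript-length trends removed. In the same comparison Gpx1, near 0, ranged from -0.27 to 0.24 with each library left out and turned to 0.024 without LPS library 2, 0.24 without LPS + G-CDs library 1 and 0.023 without LPS + G-CDs library 2. In LPS + G-CDs versus control, Sod1 and Cat turned to -0.096 and -0.10 with TPM, and Gpx4, at -0.445 to 0.13 with each library left out, to 0.13 without control library 3 and 0.12 without LPS + G-CDs library 1. TPM moved the median of all genes to -0.232, -0.135 and -0.376 in LPS versus control, LPS + G-CDs versus LPS and LPS + G-CDs versus control. The cause of these changes was not tested.

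The Sod2 share rose by 43.97 percentage points with LPS (42.7 to 45.4 with each library left out), by 48.3 as a share of reads and by 23.4 with principal transcript lengths. Between LPS + G-CDs and LPS it differed by -18.8 points (-21.5 to -15.8 with each library left out) and by -12.5 with principal transcript lengths. The Gpx4 share differed between LPS and control by 0.23 points (-0.17 to 0.94 with each library left out, at -0.081 without LPS library 1 and -0.17 without LPS library 3), and between LPS + G-CDs and LPS by 11.96 (11.2 to 12.4) and 13.6 with principal transcript lengths.

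Over all tested genes, 57 were called between LPS + G-CDs and LPS, against 25 with the pseudocount of 0.1, 25 with 6 libraries, 27 with TPM, 87 and 117 with the gene-length and principal-transcript-length trends removed, and 11 to 256 with each library left out. Between LPS + G-CDs and control 2927 were called, against 1789 with 6 libraries and 1914 without LPS + G-CDs library 2. With TPM, 1003 genes rose and 3059 fell in LPS versus control (1827 and 1803 before), 16 and 11 in LPS + G-CDs versus LPS (29 and 28), and 761 and 3218 in LPS + G-CDs versus control (1488 and 1439). With the gene-length trend removed the splits against control were 1825 to 2548 and 1516 to 2048, with the principal-transcript-length trend removed 1992 to 2784 and 1677 to 2260, and with quantile scaling 1633 to 2355 and 1309 to 1762. Gene lists were not recomputed. With 3 libraries a group, shares cannot reach an exact p below 0.1, and Gpx3, at 2 to 15 reads per library, was not tested.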
